A study of Homo sapiens with 13 samples.

Results

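The transcriptional response to BMP4 under strong receptor block was read in the 3 libraries of RUES2 cells given BMP4 with 30, 100 or 300 nM LDN-193189 (LDN), out of the 13 libraries of the series. The libraries were chosen by the dose on their labels, and all 61541 human genes of the table were read in them. Those averaging 1 CPM or more (CPM, counts scaled to a library total of 1e6) over the 6 libraries of the dose response, 14877 in number, were compared. RUES2 is a human embryonic stem cell line, used here with GFP fused to SMAD4. The cells of the dose response received 100 ng/mL BMP4, 5 µM IWP2, which blocks the secretion of Wnt ligands, and a ROCK inhibitor, together with 0, 10, 30, 100 or 300 nM LDN, and were collected at 5 h. A sixth library held cells in mTeSR medium without BMP4, IWP2 or LDN. The other 7 libraries followed the same BMP4 and IWP2 treatment without LDN over time, with 2 libraries at 0 h and 1 at each of 4, 12, 20, 28 and 42 h. The labels list BMP4 and IWP2 for the 0 h libraries too, and these were taken as harvested at the start of treatment.

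BMP ligands bind pairs of type I and type II receptor kinases, which phosphorylate SMAD1, SMAD5 and SMAD9. These join SMAD4, enter the nucleus and bind GC-rich DNA near target genes, among them the ID genes and the inhibitors that feed back on the pathway. LDN inhibits the type I receptor kinases, so more LDN means less signaling. In human pluripotent cells BMP is known for turning on amnion and surface ectoderm factors such as GATA3 and TFAP2A and for ending the pluripotent state.

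Library totals of the 3 libraries ran from 31091159 to 33146945 counts, and 3 counts equalled 0.0905 to 0.0965 CPM. Mitochondrial transcripts made up 4.22 to 4.49% of the counts in the 5 libraries with BMP4 and 7.89% in the untreated library, which had 15600931 counts. Pluripotency transcripts were abundant at every dose, with POU5F1 at 2431, 2395 and 2319 CPM at 30, 100 and 300 nM. Some chosen markers of other lineages were near 0: SOX17 stood at 0, 0.0322 and 0.151 CPM, TBXT at 0, 0.0643 and 0.121 CPM, and CGA at 0 in all 3 libraries. Other lineage markers were expressed. The neural markers summed to 653 CPM at 30 nM and 719 CPM at 300 nM, and the amnion markers to 530 and 508 CPM. Each dose was sequenced once, so a difference between doses has no replicate error, and intervals given for folds are exact 95% counting intervals only. The only replicate pair of the series, at 0 h, differed by at least 2-fold in 192 genes (1.29%), a spread that also holds differences in depth and in mitochondrial share.

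Across the low-signal range, from 300 to 30 nM LDN, more genes rose with returning signaling than fell. At 30 nM 156 genes (1.05% of those tested) were at least 2-fold above 300 nM with 100 nM between, and 35 (0.235%) were at least 2-fold below. These 191 genes were about as many as the replicate pair at 0 h placed 2-fold apart. The count of the pair had no middle library to satisfy, and its libraries were prepared in another way. Without the requirement on 100 nM, 167 genes were higher and 46 lower. In bulk RNA, fewer responding cells and less RNA per cell cannot be told apart. A broken line with 1 slope from 300 to 30 nM and another from 30 to 0 nM was fitted to each gene by edgeR's quasi-likelihood test, with the scatter about the line (2 residual degrees of freedom) as the error. The low-range slope was above 0, meaning higher with more signaling, in 613 genes (4.12%) and below 0 in 299 (2.01%) at a Benjamini-Hochberg adjusted p under 0.05. Without the 300 nM library 232 genes were called above and 71 below 0, without the 30 nM library 364 and 108, and by DESeq2 335 and 124. An unadjusted p under 0.05 was common: 2638 of the 14877 genes had one in the main fit. The number was 1407 without the 300 nM library, 1895 without the 30 nM library and 1199 by DESeq2. Unadjusted counts in the lists below are to be read against these.

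Genes that changed mainly in the low range were defined by a 30 to 300 nM difference of at least 2-fold, with 100 nM between, that was at least 2 times the 0 to 30 nM difference on the log2 scale. The rule found 71 rising (0.477%) and 16 falling genes (0.108%). The mirror rule for the high range, from 30 to 0 nM, found 40 rising (0.269%) and 17 falling genes (0.114%). Among genes averaging 5 CPM or more, 35 rose and 0 fell by the low-range rule. Both differences contain the 30 nM library, so a deviation of that library moves them in opposite directions. Just inside the 2-fold threshold lay CDH6 and SDK2, with log2 differences of 1.01 and 1.02, and just outside lay METTL7B and IQSEC2, with 0.99 and 0.97. The plot of both differences shows the rising genes above the upper dashed line and close to or right of the vertical axis.

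**Figure D1:**
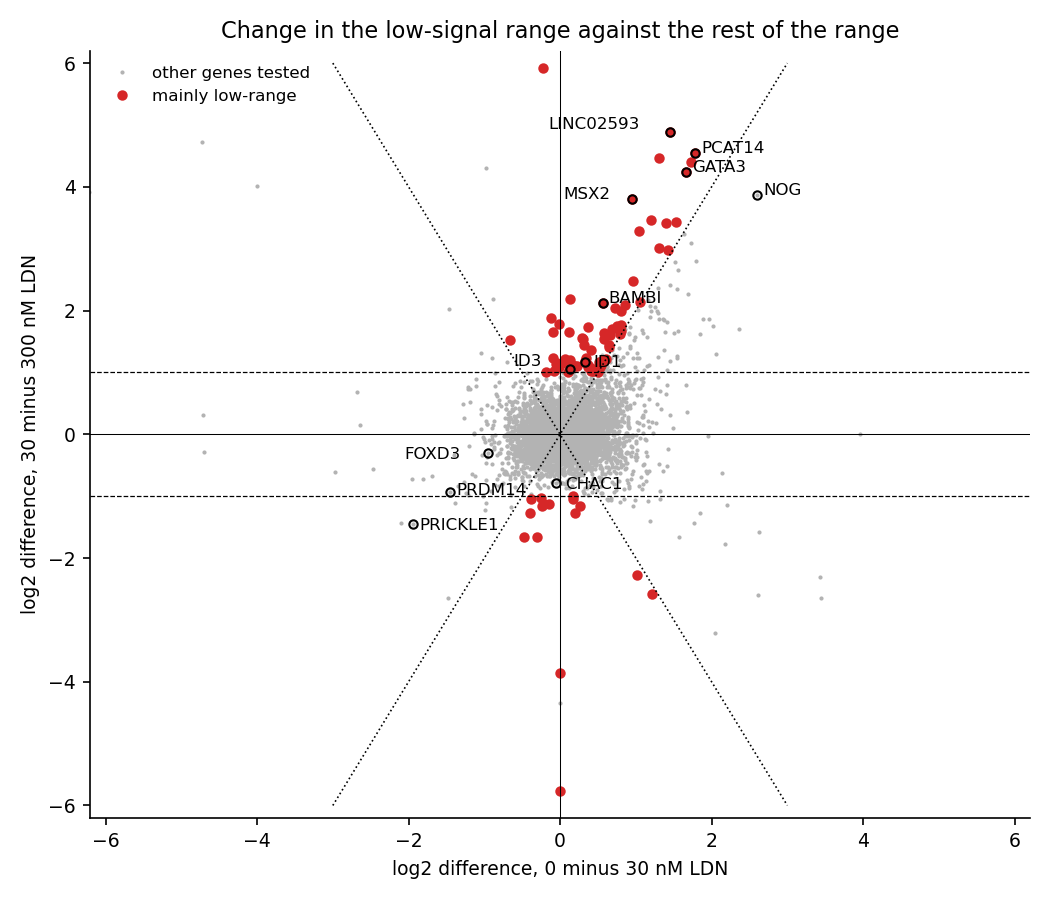
Each point is 1 of 14877 genes, with the log2 difference of CPM + 0.1 between 0 and 30 nM LDN on the x axis and between 30 and 300 nM on the y axis. Red points are the 71 rising and 16 falling mainly low-range genes, dashed lines mark 2-fold and dotted lines a ratio of 2 between the differences; GATA3, PCAT14, MSX2 and LINC02593 lie near the top, NOG lies right of the dotted line, and PRDM14, PRICKLE1 and FOXD3 fall mainly or equally in the high range.

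The 250 bases upstream of the RefSeq start (GRCh38.p14) are shown for 4 of these genes, chosen for their contrasting responses below: ID3, whose rise was nearly complete at 30 nM, BAMBI, which had the largest rise among the feedback inhibitors that passed the rule, and the transcription factors GATA3 and MSX2, which changed by over 10-fold. Capitals mark the GC-rich SMAD motifs GGCGCC and GGAGCC, the latter read on either strand and so also as GGCTCC. ID3 lies at chr1:23559502-23559751 on the minus strand, BAMBI at chr10:28677271-28677520, GATA3 at chr10:8045083-8045332 and MSX2 at chr5:174724332-174724581, all 3 on the plus strand.
ID3: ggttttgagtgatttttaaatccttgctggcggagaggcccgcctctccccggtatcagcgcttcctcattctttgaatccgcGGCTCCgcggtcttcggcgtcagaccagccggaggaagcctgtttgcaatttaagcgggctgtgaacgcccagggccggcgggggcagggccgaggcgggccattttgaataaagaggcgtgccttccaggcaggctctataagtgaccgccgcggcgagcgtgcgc
BAMBI: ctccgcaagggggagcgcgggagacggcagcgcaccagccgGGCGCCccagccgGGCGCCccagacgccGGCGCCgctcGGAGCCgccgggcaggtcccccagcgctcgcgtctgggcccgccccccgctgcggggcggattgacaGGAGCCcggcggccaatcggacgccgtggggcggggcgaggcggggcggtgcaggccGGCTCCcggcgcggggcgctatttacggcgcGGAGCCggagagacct
GATA3: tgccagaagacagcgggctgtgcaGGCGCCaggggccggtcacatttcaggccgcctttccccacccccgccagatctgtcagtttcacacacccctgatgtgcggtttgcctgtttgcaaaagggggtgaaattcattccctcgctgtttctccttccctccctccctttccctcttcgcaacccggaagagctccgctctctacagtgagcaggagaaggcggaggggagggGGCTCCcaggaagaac
MSX2: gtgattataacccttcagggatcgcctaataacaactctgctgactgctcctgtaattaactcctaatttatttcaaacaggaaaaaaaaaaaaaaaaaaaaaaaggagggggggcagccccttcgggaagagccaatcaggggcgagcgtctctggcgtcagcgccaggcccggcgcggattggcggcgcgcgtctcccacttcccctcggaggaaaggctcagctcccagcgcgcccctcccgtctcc
BAMBI held 3 copies of GGCGCC, beginning 209, 196 and 181 bases before the start, and 4 of GGAGCC. The window of GATA3 held 1 of each, ID3 held 1 GGAGCC and MSX2 held neither. GGCGCC was present in 24.8% of the 16149 upstream windows of genes tested and in 25 of the 74 windows (33.8%) of mainly low-range risers. GGAGCC was present in 38.6% and 55.4% of these windows, and in 16.4% (GGCGCC) and 30.6% (GGAGCC) of all 35116 windows. Several windows can belong to 1 gene, and a match is a description of sequence only.

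Of 24 BMP target and feedback genes tested, 12 rose by the low-range slope and 0 fell, against 4.12% and 2.01% of all genes tested. The median log2 difference between 30 and 300 nM was 0.48, against -0.00184 over all genes tested. The list was assembled from known BMP targets, so its direction is not independent evidence. By DESeq2 12 were called, and 11 without the 300 nM library.

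The ID genes encode inhibitors of bHLH transcription factors and are classic direct BMP targets. ID1 stood at 843, 616 and 376 CPM at 30, 100 and 300 nM LDN, between 1055 CPM at 0 nM and 65.6 CPM in the untreated library. Its level at 30 nM was 2.24-fold (95% counting interval 2.19 to 2.29) that at 300 nM, and the low-range slope was 0.59 ± 0.03 log2 per dose step (SE, adjusted p = 6.94e-10). ID3 stood at 297, 223 and 142 CPM, with 328 and 325 CPM at 10 and 0 nM and 51.5 CPM untreated.

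The rise of ID3 was thus nearly finished at 30 nM: 84.5% of its CPM difference between 300 and 0 nM had been covered there, against 68.7% for ID1, 57.2% for ID4 and 52.3% for ID2. ID4 stood at 155, 100 and 53.5 CPM at 30, 100 and 300 nM, and ID2 at 90.3, 60.3 and 34.0 CPM. The slope in the high range was 0.04 ± 0.03 for ID3 (adjusted p = 0.355), and the slopes of both ranges differed for each of the 4 ID genes (adjusted p = 4.01e-05 for ID3 and 0.00109 for ID2). Even at 300 nM, ID1 was 5.73-fold and ID3 2.76-fold above the untreated library, which lacked BMP4, IWP2 and LDN together and was sequenced to a lower depth.

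The feedback inhibitors spread over a wider range of responses. BAMBI, a pseudoreceptor that dampens BMP and TGF-beta signaling, stood at 214, 114 and 49.3 CPM at 30, 100 and 300 nM and at 317 CPM at 0 nM. Its low-range change was 4.35-fold (4.12 to 4.59) and its high-range change 1.48-fold. SMAD6, an inhibitory SMAD, stood at 57.1, 27.3 and 11.1 CPM and then rose to 167 CPM at 0 nM, so that 29.5% of its CPM rise was covered at 30 nM.

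NOG and GREM1 encode secreted BMP antagonists. NOG stood at 4.89, 1.42 and 0.241 CPM at 30, 100 and 300 nM and at 30.1 CPM at 0 nM, so only 15.6% of its CPM rise lay in the low range although the fold was 20.3 (10.0 to 47.7). GREM1 stood at 14.2, 7.78 and 3.35 CPM and reached 23.5 CPM at 0 nM, with 53.7% of the rise covered at 30 nM. The slopes differed between the ranges for BAMBI, SMAD6 and GREM1 (adjusted p = 1.39e-06, 0.0016 and 0.00641), and for NOG the adjusted p was 0.116.

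**Figure D2:**
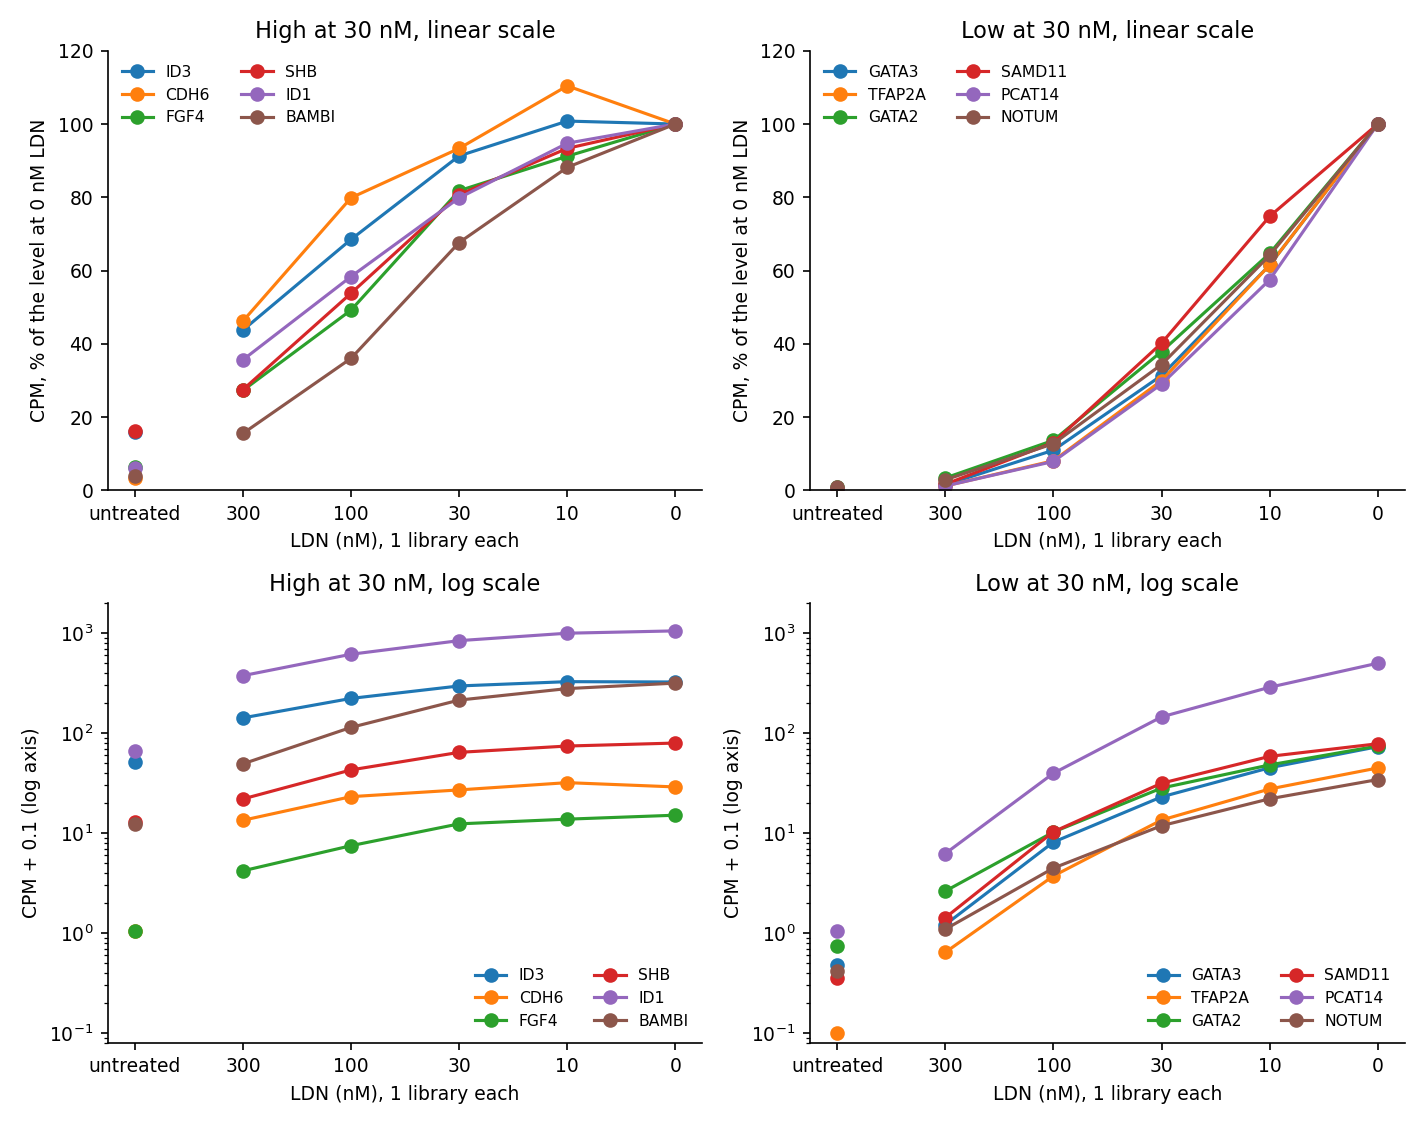
CPM of 12 named genes in each library of the dose response, ordered from no signaling (left) to full signaling (right); the upper panels give percent of the level at 0 nM on a linear axis and the lower panels CPM + 0.1 on a log axis, 1 library per point. At 30 nM the genes on the left stood at 67.7% (BAMBI) to 93.4% (CDH6) of their level at 0 nM, and those on the right at 29.0% (PCAT14) to 40.2% (SAMD11).

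Of the receptors and SMADs, 2 of 11 tested rose and 1 fell in the low range, against 4.12% and 2.01% of all genes tested. BMPR1A, a type I BMP receptor and target of LDN, stood at 149, 136 and 115 CPM at 30, 100 and 300 nM (slope 0.18 ± 0.02, adjusted p = 0.000177). BMPR2, the type II receptor, stood at 32.7, 28.8 and 25.8 CPM (adjusted p = 0.00871), and RGMA, a BMP co-receptor, at 26.0, 31.4 and 34.5 CPM (slope -0.21 ± 0.04, adjusted p = 0.00403). SMAD4 itself stood at 109, 109 and 103 CPM. Without the 300 nM library 0 of the 11 genes were called by edgeR (4 at an unadjusted p under 0.05), and without the 30 nM library 1 was called above and 0 below 0 (4 at an unadjusted p under 0.05). Of 7 ligands, BMP7, BMP4 and GDF3 rose. BMP7 stood at 18.2, 10.2 and 5.61 CPM and at 38.7 CPM at 0 nM. BMP4 and GDF3 were not called without the 300 nM library, and 2 of the 7 ligands were called without the 30 nM library.

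Among the lists, the amnion and surface ectoderm factors had the largest median difference. The list held 27 genes, and 12 passed the filter on the mean of all 6 libraries. Genes near 0 at 300 nM could pass only through libraries where they were high, which raises the median. The list was chosen with earlier results of these data known, so its direction is not independent evidence. Of 12 tested, 9 rose and 0 fell, against 4.12% and 2.01% of all genes tested. The median log2 difference was 1.98 in the low range and 1.0 in the high range. By DESeq2 9 were called, and 8 without the 300 nM library. GATA3 stood at 23.0, 8.04 and 1.12 CPM at 30, 100 and 300 nM, a 20.6-fold change (14.8 to 29.4). TFAP2A stood at 13.4, 3.63 and 0.543 CPM, a 24.7-fold change (15.5 to 42.1), and had 0 counts in the untreated library. GATA2 stood at 28.2, 10.2 and 2.53 CPM, and MSX2, a homeobox repressor, at 20.7, 8.01 and 1.39 CPM.

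These genes were near the bottom of their range at 300 nM and kept rising with each removal of inhibitor. GATA3 reached 45.0 CPM at 10 nM and 73.2 CPM at 0 nM, so 30.3% of its CPM rise lay between 300 and 30 nM, against 29.1% for TFAP2A and 35.7% for GATA2. On the log2 scale the low-range slope was the larger for all 4 (GATA3 1.92 ± 0.10 against 0.79 ± 0.06 per step, adjusted p of the difference 0.00113). HAND1, a factor of extraembryonic mesoderm and amnion, stood at 1.01, 0.289 and 0.0603 CPM, the last being 2 counts. TFAP2C, present in pluripotent cells too, changed less, with 24.3, 12.6 and 7.81 CPM.

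By the size of the fold alone, the 10 largest mainly low-range rises were those of LINC02593, PCAT14, SAMD11, TFAP2A, GATA3, MSX2, NOTUM, GATA2, PTH1R and FAM20A. PCAT14, a long non-coding RNA, stood at 145, 39.7 and 6.15 CPM at 30, 100 and 300 nM (23.6-fold, 20.5 to 27.3) and at 501 CPM at 0 nM. SAMD11, which encodes a SAM domain protein, stood at 31.5, 10.2 and 1.33 CPM, and LINC02593, also non-coding, at 13.6, 3.35 and 0.362 CPM. SAMD11 and LINC02593 are neighbours on chromosome 1, at chr1:923923-944575 on the plus strand and chr1:916865-921016 on the minus strand (GENCODE v44, GRCh38), with 2906 bases between them.

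The remaining 3 of the 10 encode secreted or surface proteins. NOTUM, a secreted enzyme that inactivates Wnt ligands, stood at 11.8, 4.37 and 0.996 CPM. PTH1R, the receptor of parathyroid hormone, stood at 8.73, 3.12 and 1.03 CPM. FAM20A, a secreted pseudokinase, stood at 42.4, 17.7 and 7.54 CPM and had the smallest fold of the 10, 5.62 (4.90 to 6.45).

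Some genes had a different slope per step in the low and the high range. The low-range slope exceeded the high-range slope in 65 genes (0.437%) and was below it in 18 (0.121%). The slopes are signed, so the first count can also hold genes that fell mainly in the high range. Likewise the second can hold genes that rose mainly there. Of the 71 rising mainly low-range genes, 62 were called in the low-range slope and 29 in the slope difference. Of the 16 falling, 5 and 0 were called. With the untreated library as a further step no gene was called in the slope difference by edgeR, while 1227 had an unadjusted p under 0.05. Of the 35 rising mainly low-range genes with at least 5 CPM, 23 had covered at least 50% of their CPM rise at 30 nM. This rise is counted from 300 nM. At that dose all 35 already stood above the untreated library, 23 of them at least 2-fold. The 5 genes with the least further change were CDH6, ID3, FGF4, SHB and ENSG00000280441. They were chosen among genes called in both the low-range slope and the slope difference. Because these same tests and differences chose them, their test results are no further support.

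CDH6, a cadherin, stood at 27.0, 23.1 and 13.4 CPM at 30, 100 and 300 nM, with 31.9 and 28.9 CPM at 10 and 0 nM and 0.961 CPM in the untreated library. Its low-range call was lost without the 300 nM library. FGF4, a growth factor of pluripotent cells, stood at 12.3, 7.40 and 4.10 CPM and at 15.0 CPM at 0 nM. SHB, an adaptor of tyrosine kinase receptors, stood at 64.2, 42.8 and 21.9 CPM and at 79.6 CPM at 0 nM.

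ENSG00000280441, a long non-coding RNA at chr21:8380643-8454792 on the plus strand (GENCODE v44), stood at 50.9, 27.4 and 18.7 CPM. Whether reads from other places in the genome entered its count was not tested. Of the CPM rise between 300 and 0 nM, 87.6% was covered at 30 nM for CDH6, 75% for FGF4, 73.4% for SHB and 72.4% for ENSG00000280441. FGFR3, an FGF receptor chosen after its values were seen, stood at 175, 128 and 79.0 CPM and had covered 67.4%. An overlapping readthrough gene, ENSG00000255872, was also among the 35, and its reads and those of SHB may be hard to tell apart.

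The plot of list members also gives the lists outside the BMP pathway. Of all genes tested 4.12% rose and 2.01% fell by the low-range slope. Among FGF and ERK feedback genes 3 of 22 rose (FGF4, SPRY4 and IL17RD) and 1 fell (MYC), with a median log2 difference of 0.03. With edgeR 1 rose and 0 fell without the 300 nM library (4 at an unadjusted p under 0.05) and also without the 30 nM library (5 at an unadjusted p under 0.05). Among Wnt targets 4 of 10 rose (NOTUM, CCND1, TCF7 and APCDD1) and AXIN2 fell, from 40.0 CPM at 300 nM to 33.0 and 25.8 CPM at 100 and 30 nM and 15.3 CPM at 0 nM. AXIN2 is a general readout of Wnt signaling, and NOTUM opposes it. Of the 5 Wnt list calls, CCND1, TCF7 and APCDD1 were lost without the 300 nM library.

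Among HES, HEY and Notch genes 2 of 14 rose and 2 fell. The shares over all genes tested were 4.12% and 2.01%. HES1, a bHLH repressor, stood at 27.8, 17.4 and 12.7 CPM at 30, 100 and 300 nM and at 35.7 CPM at 0 nM, with 65.4% of the rise covered at 30 nM. HEY1, of the same family, stood at 8.33, 4.50 and 2.65 CPM but reached 30.2 CPM at 0 nM, and only 20.6% had been covered. HEY2 and NRARP were the genes that fell, and HEY2 stood at 8.48, 12.7 and 14.5 CPM. Without the 30 nM library 3 of the 14 rose and 0 fell by edgeR (4 at an unadjusted p under 0.05), and 1 fell without the 300 nM library and by DESeq2. Among Nodal and activin genes 2 of 12 rose (INHBB and TGIF2) and 3 fell (LEFTY1, INHBE and TGIF1). By edgeR 0 rose and 1 fell without the 300 nM library (5 at an unadjusted p under 0.05), and 1 rose and 1 fell without the 30 nM library and by DESeq2. LEFTY1 has a close copy, LEFTY2, so its level is uncertain.

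Of the amnion markers expressed later 2 of 10 rose (IGFBP3, and HEY1 again) and 0 fell, against 4.12% and 2.01% of all genes tested. Of the primitive streak, mesoderm and endoderm markers 3 of 14 passed the filter and of the trophoblast markers 2 of 14, with no call among them by edgeR or DESeq2 and an unadjusted edgeR p under 0.05 for 2 of the 3 and 0 of the 2 tested. The summed level of the first list was 55.1 CPM at 30 nM and 48.4 CPM at 300 nM, most of it from KDR (49.4 and 44.4 CPM), and that of the second 44.5 and 38.2 CPM.

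**Figure D3:**
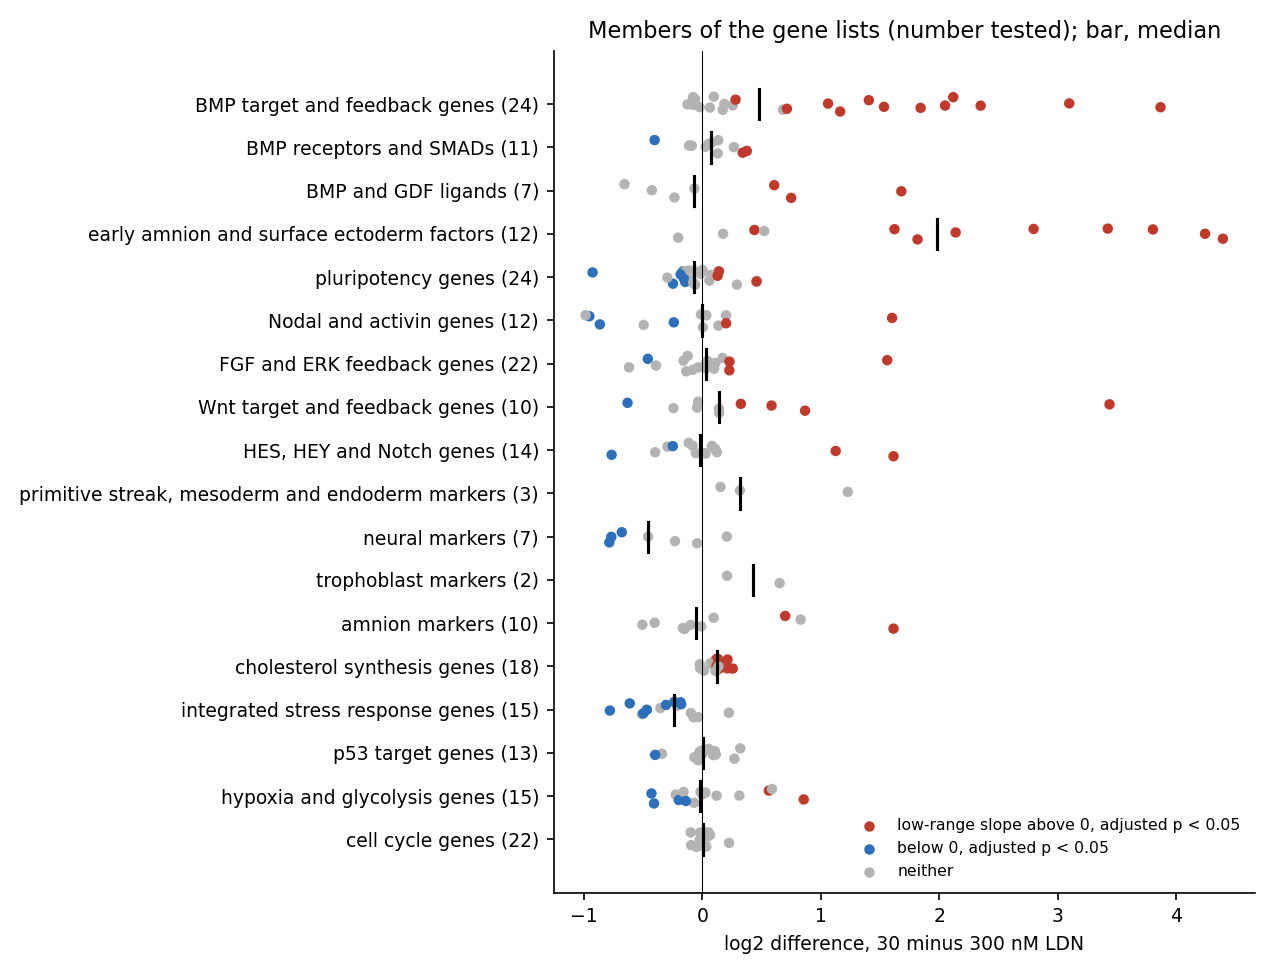
Log2 difference between 30 and 300 nM LDN for each list member with a mean of at least 1 CPM (number tested beside the name); red and blue points passed the low-range slope test at an adjusted p under 0.05, and the bar is the median. Amnion and surface ectoderm factors have a median of 1.98 and BMP target and feedback genes of 0.48, and cell cycle genes cluster around 0.01.

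Of 24 pluripotency genes tested, 4 rose (PODXL, LIN28A, TRIM71 and FGF2) and 6 fell (PRDM14, DNMT3B, ZFP42, CD24, DPPA4 and THY1). The shares over all genes tested were 4.12% and 2.01%, and the median log2 difference of the list was -0.07. PRDM14, a transcriptional regulator of naive and germline pluripotency, stood at 40.1, 63.1 and 76.3 CPM at 30, 100 and 300 nM and at 14.6 CPM at 0 nM. DNMT3B, a de novo DNA methyltransferase, stood at 1960, 2218 and 2330 CPM and at 1394 CPM at 0 nM.

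PODXL, a surface sialomucin of pluripotent cells, moved the other way, with 2043, 1753 and 1489 CPM at 30, 100 and 300 nM. SOX2 stood at 405, 422 and 428 CPM (adjusted p = 0.413), and 338 CPM at 0 nM. FOXD3, a forkhead repressor, stood at 51.1, 60.2 and 62.7 CPM in the low range and dropped to 26.2 CPM at 0 nM, with a low-range adjusted p of 0.0563 and a slope difference adjusted p of 0.0213. Without the 300 nM library 1 pluripotency gene was called above and 2 below 0, and without the 30 nM library 1 and 1.

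Of 7 neural markers 3 fell and 0 rose, where 2.01% of all genes tested fell and 4.12% rose. Without the 30 nM library 1 fell and 1 rose, and by DESeq2 1 fell and 0 rose (3 at an unadjusted p under 0.05 in each). OTX2, a homeobox factor of epiblast and forebrain, stood at 29.1, 44.9 and 49.7 CPM at 30, 100 and 300 nM and at 12.0 CPM at 0 nM. Its low-range call was lost without the 30 nM library and by DESeq2, and the adjusted p for a difference between the slopes of both ranges was 0.263.

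Falls of at least 2-fold across the low range were rare, with 5 among genes averaging 5 CPM or more. They are named here after their values were seen: PRICKLE1, HES3, IRX2, LRAT and PET117. PRICKLE1, a planar polarity protein, stood at 13.1, 25.3 and 36.1 CPM at 30, 100 and 300 nM and at 3.34 CPM at 0 nM. IRX2, a homeobox factor, stood at 23.9, 41.9 and 55.8 CPM, and LRAT, which esterifies retinol, at 21.5, 36.0 and 46.3 CPM. The first 4 continued to fall at lower LDN, while PET117 stood at 4.49 CPM at 30 nM and 7.20 CPM at 0 nM.

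A different pattern, higher at 300 nM than at every other dose, was seen in some of the integrated stress response genes, which act downstream of the factor ATF4. Of 15 tested, 8 fell with returning signaling and 0 rose, against 2.01% and 4.12% of all genes tested, and 7 were not called. The median log2 difference was -0.24, and members ranged from -0.78 to 0.22. CHAC1, a glutathione-degrading enzyme, stood at 27.6, 35.3 and 47.5 CPM at 30, 100 and 300 nM, and at 27.9, 26.7 and 28.1 CPM at 10 nM, 0 nM and untreated (slope -0.38 ± 0.04, adjusted p = 2.7e-06). DDIT4, an inhibitor of mTORC1, stood at 25.2, 26.3 and 38.6 CPM, and SESN2, of a similar role, at 27.4, 29.1 and 38.8 CPM.

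The untreated library lay below the 300 nM library for each of these 3. Without the 300 nM library 1 of the 15 genes was called and without the 30 nM library 5. With the untreated library as a further step 0 were called by edgeR. In that setting 5 of the 15 had an unadjusted p under 0.05, against 3988 of all 14877 genes tested. INHBE, an activin beta subunit, followed the same course, with 12.5, 14.8 and 22.9 CPM and 12.6 CPM untreated, as did VEGFA, with 52.9, 58.9 and 71.4 CPM and 52.0 CPM untreated. A culture effect in 1 library and an effect of the highest LDN dose cannot be told apart.

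**Figure D4:**
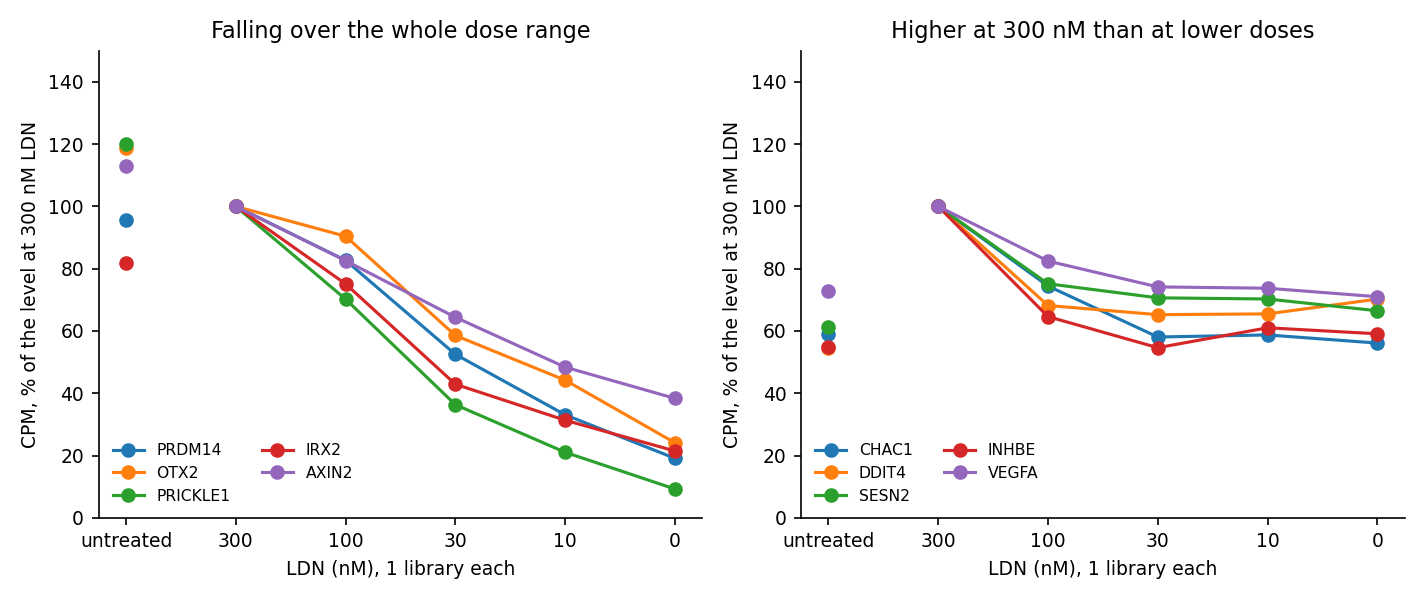
CPM as percent of the level at 300 nM LDN (linear axis) for genes that fell over the whole dose range (left) and genes highest at 300 nM (right), 1 library per point. At 30 nM PRICKLE1 and CHAC1 had fallen from 36.1 to 13.1 CPM and from 47.5 to 27.6 CPM, and at 0 nM they stood at 3.34 and 26.7 CPM.

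Metabolic and growth lists gave small median differences, though single members of the hypoxia and glycolysis list ranged from -0.43 to 0.86 on the log2 scale. Their counts stand against 4.12% rising and 2.01% falling over all genes tested. Of 18 cholesterol synthesis genes 11 rose and 0 fell, all by small amounts (log2 differences of at most 0.26), for example MVK with 54.6, 47.8 and 45.7 CPM at 30, 100 and 300 nM, and 0 were called by edgeR without the 300 nM library (5 at an unadjusted p under 0.05) and 7 without the 30 nM library and by DESeq2. In the hypoxia and glycolysis list 2 of 15 rose (EGLN3, an oxygen sensor, and ADM, a vasodilator peptide) and 4 fell (SLC2A1, VEGFA, HK2 and SLC2A3). In that list 1 fall was called without the 300 nM library and 2 without the 30 nM library. ADM stood at 96.1, 82.3 and 65.1 CPM at 30, 100 and 300 nM and at 97.5 CPM at 0 nM, so 95.5% of its rise was covered at 30 nM. Of 13 p53 targets 1 fell (FDXR, lost without the 300 nM library), and of 22 cell cycle genes 0 were called by edgeR or DESeq2 (2 at an unadjusted edgeR p under 0.05), with low-range log2 differences from -0.10 to 0.22.

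The same genes were then read in the time series, whose libraries were not used to choose them and which came from a separate RNA extraction with another kit and were ribosomal RNA depleted, where those of the dose response were polyA selected. Time and library chemistry therefore differ together between the sets, and levels were compared within each set only. Of all genes tested, 505 (3.39%) were at least 2-fold higher at 4 h than in both 0 h libraries and 86 (0.578%) at least 2-fold lower. Of the 71 mainly low-range risers 60 were higher (84.5%) and 0 lower. Of all 156 genes at least 2-fold up across the low range, 136 were higher (87.2%). A high share was therefore not particular to the mainly low-range risers. Of the 40 mainly high-range risers 16 were higher (40.0%). Their levels were lower, with a median of 1.72 CPM and 6 averaging 5 CPM or more. The mainly low-range risers had a median of 4.99 CPM. All 35 risers with at least 5 CPM were higher at 4 h, by 1.33 to 8.03 on the log2 scale (median 3.43, against 0.06 over all genes tested). The 4 h library has no replicate.

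GATA3 stood at 0.158 and 0.196 CPM in the 0 h libraries and at 45.6 CPM at 4 h, and SAMD11 at 0.184 and 0.463 CPM and at 105 CPM. ID3 stood at 29.0 and 33.5 CPM at 0 h and at 253 CPM at 4 h, and CDH6 at 2.05 and 2.47 CPM and at 22.9 CPM. Of the 35 genes lower at 30 than at 300 nM 8 (22.9%) were at least 2-fold lower at 4 h, among them PRICKLE1, which stood at 87.0 and 81.8 CPM at 0 h and at 6.91 CPM at 4 h. CHAC1 stood at 17.8 and 23.6 CPM at 0 h and at 27.7 CPM at 4 h, less than 2-fold above either.

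**Figure D5:**
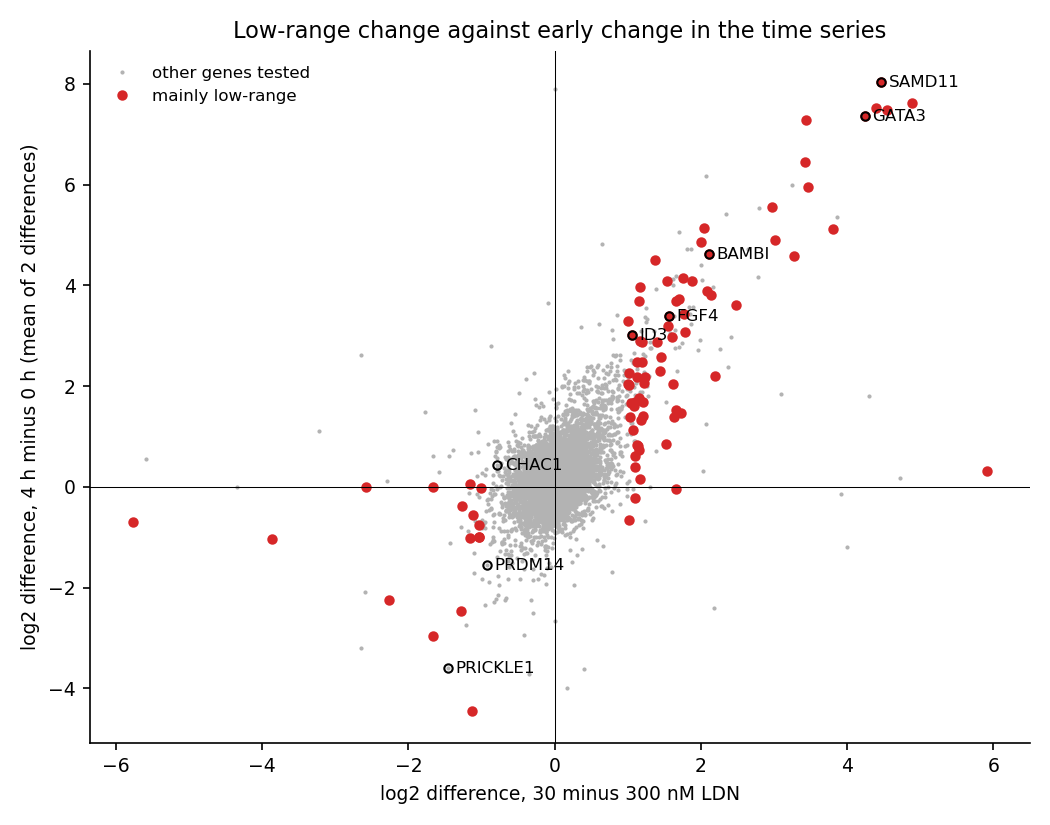
Each point is 1 of 14877 genes, with the log2 difference of CPM + 0.1 between 30 and 300 nM LDN on the x axis and the mean log2 difference between 4 h and each of the 2 libraries at 0 h on the y axis. Red points are mainly low-range genes, of whose 71 risers 60 were at least 2-fold higher at 4 h; GATA3 and SAMD11 lie at the upper right, PRICKLE1 at the lower left and CHAC1 at the left near 0.

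Some low-range values rest on near-identical copies. H2AC18 and H2AC19 encode the same histone, and H2AC18 had 5.34 CPM at 300 nM and 0 at 30 and 100 nM while H2AC19 had 0 at 300 nM and 5.93 and 5.85 CPM at 30 and 100 nM, so each met the 2-fold rule in the opposite direction and neither is a reliable change. RGPD6, which shares sequence with other RGPD genes and stood at 97.1, 58.6 and 42.3 CPM, is uncertain for the same reason.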

How the data were processed

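Bulk RNA-seq libraries of the dose response were polyA selected and those of the time series ribosomal RNA depleted. Per the labels, the authors aligned trimmed reads to GRCh38 (STAR 2.7.8a) and quantified genes with RSEM 1.3.3. The ENSEMBL release is not given in the sources used here. The deposited tables hold expected counts per gene, which are whole numbers here, and FPKM, which the authors normalized for length and depth and which served as an alternative only. CPM was computed on each library total. Features without a human gene identifier (reporter genes, at most 0.00183% of counts) entered the totals and no test. Differences are on the log2(CPM + 0.1) scale.

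The broken line was fitted to rounded counts of the 5 libraries with BMP4, from genes averaging 1 CPM or more, with edgeR 4.0.16 (quasi-likelihood test, TMM, Benjamini-Hochberg adjustment, threshold 0.05; R 4.3.3) and was tested on simulated data. DESeq2 1.42.0 was the alternative test. Tables and figures were made in Python 3.11.15 (pandas 2.3.3, numpy 2.4.6; matplotlib 3.10.9 for figures, scipy 1.17.1 for intervals). The step from 0 to 10 nM was set equal to the others. Adjusted p-values below are from edgeR unless DESeq2 is named.

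Named genes are list members (those called in the low range first, then by level), the 10 mainly low-range genes with the largest rise, and the 5 called genes most nearly complete at 30 nM, these averaging 5 CPM or more. The largest falls were to be named likewise, but 0 mainly low-range fallers averaged 5 CPM or more. The 2-fold falls and FGFR3 were named after their values were seen. The members and lists were chosen with earlier results of these data known. List symbols were matched to the symbols of the tables. Nothing says whether the 0 h libraries came from separate cultures. Alternatives covered scaling, unit, pseudocount, filter, thresholds, dose axis, the untreated library and each dose left out.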

Additional observations from a re-analysis of the deposited data

How the results depend on the processing

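Counts rested on low values and on the end libraries of the range. With a pseudocount of 1 CPM, 87 genes were at least 2-fold higher and 12 lower across the low range, with a mean of at least 5 CPM 69 and 5, and without a filter 669 and 445. Mainly low-range risers and fallers then numbered 34 and 7 (pseudocount of 1 CPM) and 35 and 0 (at least 5 CPM). A ratio of 1 gave 141 and 28, a ratio of 4 gave 26 risers, and the high-range difference from 10 nM gave 155 and 28. The low-range slope was above 0 in 335 and below 0 in 124 genes by DESeq2, and above 0 in 377 with the untreated library added. Leaving out 1 dose gave 232 to 689 genes above and 71 to 437 below 0. The slope difference was below 0 in 7 genes by DESeq2 and in 32 with at least 5 CPM, and was called above and below 0 in 290 and 106 genes without a filter, in 0 and 0 with the untreated library, and in 33 to 219 and 13 to 97 with 1 dose left out. At 1.5-fold, 14 of the genes lower across the low range were lower at 4 h, and leaving out 1 library at 0 h gave 10 to 13. The causes were not tested.

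With the untreated library as a step, low-range slopes that changed sign included those of FDXR (0.0680), IL17RD (-0.0524), SPRY4 (-0.0208) and ZFP42 (0.0442). Of 93 slopes of list members and named genes, 49 lost their call without the 300 nM library, 35 without the 30 nM library and 20 by DESeq2. TMM and DESeq2 size factors kept every count within 1.5 times. No paired analysis was possible because no dose has a second library and the labels share no replicate numbers between groups. Each dose has 1 library, which limits precision.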
